A study of Mus musculus with 8 samples.

Results

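The genes described here are 32 members of the unfolded protein response and the integrated stress response, measured in whole mouse liver. They were taken by name: sensors, transcription factors and targets of the ATF6, IRE1-XBP1 and PERK-ATF4 arms. All 32 had a row among the 40838 of the count table, and all 32 passed the filter on low counts that kept 17438 genes. The 8 livers came from C57BL/6 mice kept on a diet that gives nonalcoholic steatohepatitis (NASH), a fatty liver with inflammation and scarring. After 7 weeks of diet the mice received an adeno-associated virus (AAV), and the diet then went on for 9 weeks, to 16 weeks in all. In 4 livers the virus was AAV-TBG-Lpcat3 and in the 4 controls it was AAV-TBG-eGFP, which carries a green fluorescent protein. TBG is a promoter active in hepatocytes, so other liver cells are not targeted by it. Lpcat3 encodes an enzyme that puts polyunsaturated fatty acids into membrane phospholipids, including those of the endoplasmic reticulum (ER). Diet and virus were common to both groups, and no library of a mouse off the diet or without virus was among the 8, so the comparison is between 2 kinds of virus in NASH liver. Neither age nor sex is given, and the labels do not say that each library is a separate animal, so p-values measure the spread between these samples.

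The ER is where secreted and membrane proteins are folded, and hepatocytes, which secrete most plasma proteins, hold a large amount of it. When unfolded protein builds up there, the kinase and nuclease IRE1 (gene Ern1) splices the mRNA of Xbp1, the kinase PERK (gene Eif2ak3) phosphorylates the translation factor eIF2 and thereby favours translation of Atf4, and ATF6 is cut into an active transcription factor. The targets are chaperones, enzymes of ER-associated degradation (ERAD), and, downstream of ATF4, genes of amino acid supply and cell death. Other kinases of eIF2 feed the same ATF4 programme, which is then called the integrated stress response. Counts per gene report the amount of RNA. They show neither splicing of Xbp1, nor phosphorylation of PERK or eIF2, nor cutting of ATF6.

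Binding sites for these arms are short, and 6 were searched on both strands of RefSeq promoter windows (build GRCm38.p6, 250 bases before and 50 after each gene start). The ER stress response element (ERSE), read by ATF6 and XBP1 together with NF-Y, is CCAAT, any 9 bases, CCACG. ERSE-II is ATTGG, any base, CCACG. The others were TGACGTGG (a core for XBP1 and ATF6), TGATGNAAT and the overlapping TGATGCAA (sites for ATF4 with C/EBP partners), and TGACGTCA (the cyclic AMP response element). Windows were found for 28 of the 32 members, and not for Atf6, Hyou1, Manf and Derl1. An ERSE lay in the windows of 9 of the 28: Hspa5, Hsp90b1, Calr, Canx, Pdia6, Dnajc3, Creld2, Syvn1 and Derl3. Over all promoters, 0.137% of 27025 genes had one. The stretches below are examples that carry the ERSE of a folding gene (Hspa5, Calr, Pdia6, Creld2) or a different element (Herpud1, Chac1). Not every folding gene described below has such an element: the window of Sdf2l1 held none of the 6 motifs. Capitals mark the matched motif, and each stretch is read along the strand of its gene.
Hspa5, ERSE, chr2:34772005-34772063, plus strand: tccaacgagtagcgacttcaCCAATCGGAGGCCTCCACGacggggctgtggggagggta
Calr, ERSE on the opposite strand, chr8:84847055-84847113, minus strand: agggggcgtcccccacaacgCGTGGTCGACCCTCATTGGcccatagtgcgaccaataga
Pdia6, ERSE, chr12:17266471-17266529, plus strand: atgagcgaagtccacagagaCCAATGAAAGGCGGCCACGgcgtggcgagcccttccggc
Creld2, ERSE on the opposite strand, chr15:88819500-88819558, plus strand: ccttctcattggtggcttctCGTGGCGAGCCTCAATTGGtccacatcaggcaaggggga
Herpud1, ATF4-type site on the opposite strand and then ERSE-II, chr8:94386297-94386407, plus strand: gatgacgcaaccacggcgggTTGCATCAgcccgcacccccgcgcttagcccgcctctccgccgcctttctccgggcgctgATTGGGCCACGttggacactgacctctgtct
Chac1, ATF4-type site on the opposite strand, chr2:119351029-119351076, plus strand: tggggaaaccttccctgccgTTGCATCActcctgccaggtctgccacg

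Of these motifs, the ERSE was mainly in folding genes, and the others were in few members or none. The ERSE was in 7 of 11 folding genes with a window and 2 of 6 degradation genes, and in 0 of 5 ATF4 targets, 0 of 4 transcription factors and 0 of 2 sensors. ERSE-II was in Dnajb11 and Herpud1 and in 0.0444% of all genes. TGATGCAA was in Atf3, Herpud1 and Chac1, against 1.03% of all genes. TGACGTCA was in Ppp1r15a, against 2.03%. No member window held TGATGNAAT or TGACGTGG (0 of 28 each), which 1.08% and 0.714% of all genes had. A match is only these letters in this window, and does not show that a factor binds there.

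Library totals ran from 22433625 to 25651874 counts, and the members had from 290 (Asns) to 123311 (Hsp90b1) counts over the 8 libraries. Levels are counts scaled to library size (CPM, with TMM scaling), and log2 fold changes (Lpcat3 over eGFP, so negative is lower with Lpcat3) come with their standard error (SE) from edgeR's quasi-likelihood test. Lpcat3 itself averaged 153 ± 17.2 CPM after the eGFP virus and 363 ± 86.7 CPM after the Lpcat3 virus (SD, n = 4 each; two-sided exact permutation p = 0.0286, the smallest that 70 relabellings give; edgeR adjusted p = 0.164), with every Lpcat3 library above every control. Albumin mRNA (Alb) stood at 28660 to 56980 CPM, so the defining hepatocyte marker was high in every library. The sample codes carry the numbers 1290, 1317, 1344 and 1345, whose meaning is not stated. Of the controls, 3 have 1290 or 1317 (replicates 1, 2 and 3), and of the Lpcat3 livers 3 have 1344 or 1345 (replicates 2, 3 and 4), so differences of mean log2 CPM within 1290 and 1317, and within 1344 and 1345, are given for the genes the results turn on. Each of these differences pools code numbers, a grouping that the labels do not give. The number 1317 is held only by a control and 1344 only by Lpcat3 livers, so number and group are not fully separated within a division. Each difference has 1 library on one side: Lpcat3 replicate 1 in the former and control replicate 4 in the latter. For Lpcat3 these differences were 0.91 and 1.16, beside a pooled log2 fold change of 1.25.

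No member passed the test across all genes: 0 of 32 had an adjusted p under 0.05 in edgeR (0.579 to 0.959), where 0.00573% of all genes did. DESeq2 also called 0 of 32 (0.275% of all genes), and limma-voom 0 of 32 (0.00573%). At an unadjusted p under 0.05 edgeR had 4 members, which is 12.5% of them against 8.48% of all genes, and all 4 were lower in the Lpcat3 group (by this rule 5.18% of all genes were lower and 3.3% higher). DESeq2 had 5 at that level, against 8.58% of all genes, and limma-voom 4, against 8.94%. For 0 of 32 members did the groups separate without overlap, where 4.16% of all genes did (2.24% lower, 1.93% higher). By direction alone 26 of 32 log2 fold changes were below 0, or 81.2% against 51.5% of all genes, with a median of -0.11 against -0.01. Scaled by library totals alone, the median of all genes shifted to -0.13 with 76.9% below 0, and 29 of 32 members were below 0, of which 26 were below the median gene. The count also depended on libraries and codes: 19 of 32 members were below 0 without both libraries numbered 3 (median -0.06), and 19 of 32 with the code numbers in the model (median -0.04). In both code divisions 15 of 32 were below 0. In the main fit the log2 fold change was negative for 13 of 13 folding genes (median -0.20), 3 of 3 sensors (-0.11), 3 of 4 transcription factors (-0.08), 5 of 7 degradation genes (-0.04) and 2 of 5 ATF4 targets (0.05). With the code numbers in the model these counts were 13 of 13 folding genes (-0.11), 0 of 3 sensors (0.18), 2 of 4 transcription factors (0.04), 4 of 7 degradation genes (-0.02) and 0 of 5 ATF4 targets (0.26).

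**Figure D1:**
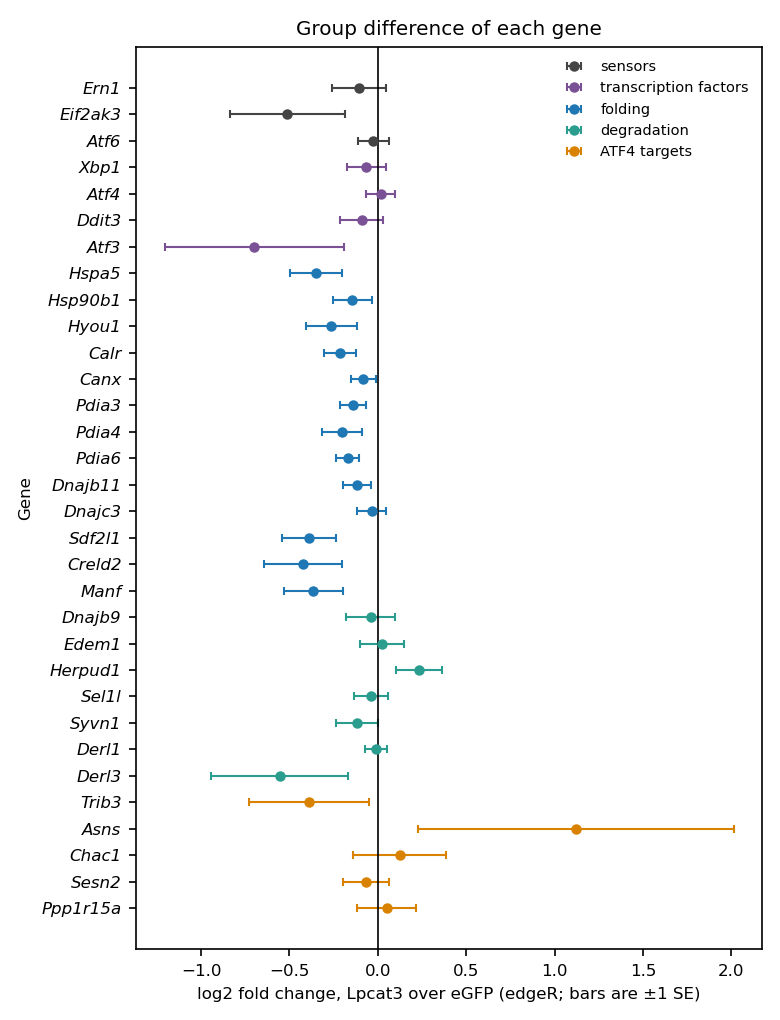
Log2 fold change of each of the 32 genes (Lpcat3 over eGFP, horizontal axis) with bars of ±1 SE from edgeR, coloured by role. The 13 folding genes all lie left of 0, from -0.42 (Creld2) to -0.03 (Dnajc3), while Herpud1 (0.23) and Asns (1.12) lie to the right.

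Among the sensors, Atf6 was the steadiest. It measured 136, 135, 149 and 125 CPM in control replicates 1 to 4, and 136, 125, 124 and 152 CPM in Lpcat3 replicates 1 to 4, so the groups covered the same range (log2 fold change -0.03, SE 0.09; edgeR adjusted p = 0.935). Ern1 was at 81.8, 86.0, 119 and 67.9 CPM in the controls and at 87.3, 82.4, 73.3 and 86.6 CPM with Lpcat3. Its highest and lowest libraries were both controls, and the means were 88.6 ± 21.5 and 82.4 ± 6.43 CPM (adjusted p = 0.835). Eif2ak3, which encodes PERK, was at 28.1, 22.6, 54.7 and 20.6 CPM in the controls and at 26.6, 20.4, 14.4 and 27.0 CPM with Lpcat3. Here control replicate 3 was far above the other 7 libraries and Lpcat3 replicate 3 below them (log2 fold change -0.51, SE 0.32; adjusted p = 0.659). Eif2ak3 shares 485 exon bases with the antisense gene model Gm43292, whose reads could not be told apart if counting ignored strand. Leaving out control replicate 3 brought the Eif2ak3 difference to -0.10 and that of Ern1 to 0.07. Within codes 1290 and 1317, and within 1344 and 1345, Eif2ak3 differed by -0.30 and -0.05, Ern1 by -0.11 and 0.25, and Atf6 by -0.05 and 0.09. Libraries of 1 number alone read otherwise for Eif2ak3. In 1345 it was at 27.0 CPM with Lpcat3 and 20.6 CPM in the control. In 1290 it was at 26.6 CPM with Lpcat3 and at 28.1 and 22.6 CPM in the controls.

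The transcription factors differed less between groups than between libraries of a group. Xbp1 was at 124, 115, 155 and 131 CPM in the controls and at 114, 144, 114 and 130.2 CPM with Lpcat3 (log2 fold change -0.06, SE 0.11; edgeR adjusted p = 0.860). Atf4, whose protein is controlled mostly at translation, was at 49.9, 43.8, 55.1 and 45.7 CPM in the controls and at 48.3, 46.6, 48.8 and 52.8 CPM with Lpcat3 (0.02, SE 0.08, but -0.11 with library totals; adjusted p = 0.959). Both genes had their highest library in control replicate 3, and the groups overlapped throughout. Ddit3, which encodes the death-associated factor CHOP, was low, at 6.09, 6.74, 5.64 and 4.96 CPM in the controls and 5.59, 5.65, 5.08 and 5.65 CPM with Lpcat3 (-0.09, SE 0.12; adjusted p = 0.820). Atf3, a stress-induced repressor, varied most of the 4, at 8.45, 5.68, 13.3 and 3.10 CPM in the controls and 5.59, 4.33, 1.44 and 7.32 CPM with Lpcat3. Control replicate 3 again held the highest value and Lpcat3 replicate 3 the lowest (log2 fold change -0.70, SE 0.51; adjusted p = 0.672). Within the 2 code divisions, in the same order, Atf3 differed by -0.61 and 0.21, Ddit3 by -0.13 and 0.14, Xbp1 by -0.19 and -0.02, and Atf4 by -0.03 and 0.11.

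**Figure D2:**
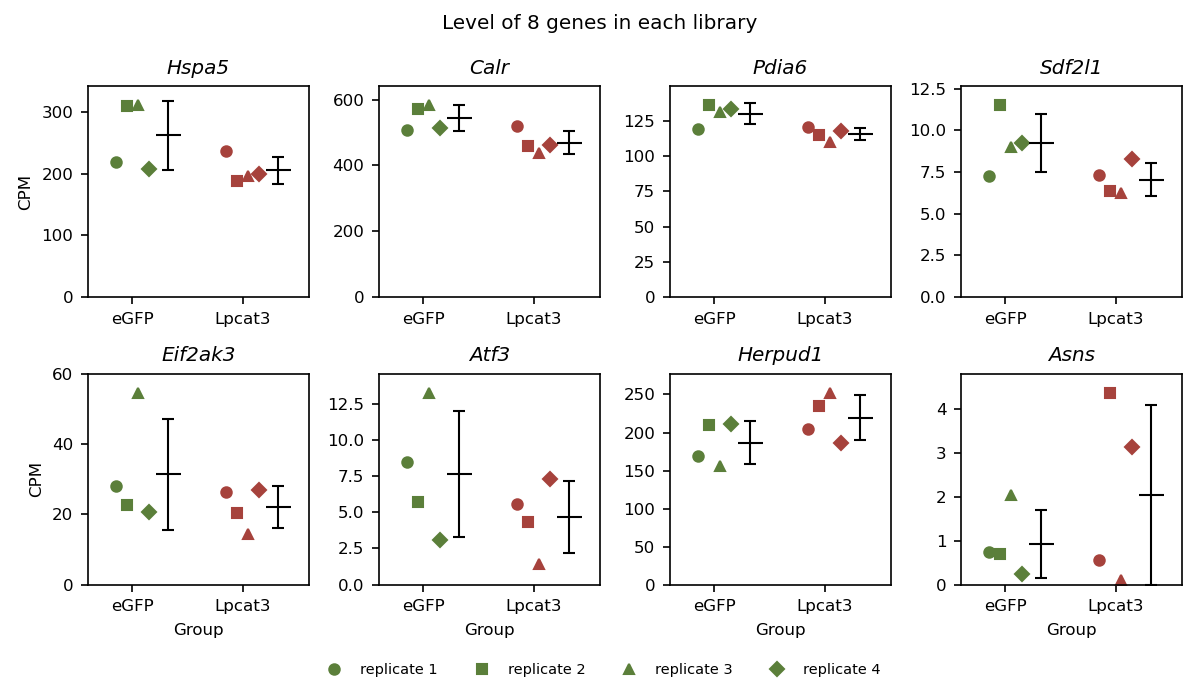
CPM (vertical axes, from 0) of 8 genes in each control (green) and Lpcat3 (red) library, with symbols for the replicate number and black bars for mean ± SD of 4 libraries. Hspa5 reaches 309 and 311 CPM in control replicates 2 and 3 while its other 6 libraries lie at 188 to 237, and Eif2ak3 and Atf3 have their highest value in control replicate 3.

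The folding genes gave the lower values with Lpcat3. Hspa5, the ER chaperone BiP that also holds the sensors inactive, was at 219.8, 309, 311 and 208 CPM in the controls and at 237, 188, 197 and 199.8 CPM with Lpcat3. Control replicates 2 and 3 stood above all others, and control replicates 1 and 4 lay within the Lpcat3 range. The means were 262 ± 55.8 and 206 ± 21.8 CPM (log2 fold change -0.35, SE 0.15; unadjusted p = 0.0406, edgeR adjusted p = 0.581). Calr, the calcium-binding lectin chaperone calreticulin, was at 507, 572, 583 and 514 CPM in the controls and at 519, 459, 437 and 462 CPM with Lpcat3. Only Lpcat3 replicate 1, with 519, overlapped the controls (-0.21, SE 0.09; unadjusted p = 0.0387, adjusted p = 0.581). Pdia6, a protein disulfide isomerase, was at 119, 136, 132 and 134 CPM in the controls and at 120.4, 115, 110.1 and 118 CPM with Lpcat3. The overlap was again between control replicate 1 and Lpcat3 replicate 1 (-0.17, SE 0.07; unadjusted p = 0.0283, adjusted p = 0.579). Sdf2l1, a small partner of BiP, was at 7.27, 11.5, 8.98 and 9.25 CPM in the controls and at 7.32, 6.36, 6.23 and 8.31 CPM with Lpcat3 (-0.39, SE 0.16; unadjusted p = 0.0319, adjusted p = 0.579). Control replicate 1 was the lowest control and lay within the Lpcat3 range. Across the 8 fits that each leave out 1 library the log2 fold change of these 4 genes stayed below 0, from -0.49 (Sdf2l1) to -0.15 (Pdia6). Within codes 1290 and 1317, and within 1344 and 1345, Hspa5 differed by -0.22 and -0.10, Calr by -0.09 and -0.18, Pdia6 by -0.10 and -0.23, and Sdf2l1 by -0.31 and -0.42. The values were thus negative in both divisions, and for Hspa5 both were smaller in size than the pooled -0.35. Libraries of 1 number alone read otherwise in 1290, where Lpcat3 replicate 1 lay above control replicate 1 and below control replicate 2 for all 4 genes. In 1345 the Lpcat3 library was below the control for all 4.

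The other 9 folding genes had smaller or noisier differences. Creld2 and Manf, secreted factors induced by ER stress, averaged 9.83 ± 1.59 against 13.2 ± 4.29 CPM (log2 fold change -0.42, SE 0.22) and 49.1 ± 5.86 against 63.2 ± 15.3 CPM (-0.37, SE 0.17), Lpcat3 group first. Within the 2 code divisions Creld2 differed by -0.22 and -0.12, and Manf by -0.24 and -0.01. Hyou1, a nucleotide exchange factor for BiP, averaged 136 ± 19.2 against 163 ± 30.9 CPM (-0.26, SE 0.14). Among the isomerases, Pdia4 had a log2 fold change of -0.20 (SE 0.11) and Pdia3 of -0.14 (SE 0.07). Hsp90b1, the ER form of the chaperone HSP90, averaged 606 ± 30.4 against 670.2 ± 99.1 CPM (-0.14, SE 0.11). The co-chaperones Dnajb11 (-0.12, SE 0.08) and Dnajc3 (-0.03, SE 0.08) and the membrane lectin Canx (-0.08, SE 0.07) were nearest to 0. Adjusted p-values of these 9 ran from 0.591 (Manf) to 0.904 (Dnajc3) in edgeR. Set on a length scale, in CPM per kilobase of exon, the controls held most Calr (189), Hsp90b1 (166) and Canx (113), against 62.0 for Hspa5, 8.35 for Sdf2l1 and 9.65 for Creld2.

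Within the controls, 1 library carried much of the height of this group. Control replicate 2 was the highest of all 8 libraries for 10 of 13 folding genes, including Creld2 (18.8 CPM, against 9.78 to 14.2 in the other controls) and Manf (80.1 CPM, against 46.3 to 71.3). No folding gene had its highest value in an Lpcat3 library (0 of 13). Summed over the 13 genes, the controls had 2864 to 3555 CPM and the Lpcat3 livers 2732 to 3007 CPM. Without control replicate 2, 12 of 13 were lower with Lpcat3, the median log2 fold change was -0.13 in place of -0.20, and the count at an unadjusted p under 0.05 was 0 in place of 4, where 8.06% of all genes met that rule. The count was also 0 without Lpcat3 replicate 2 (5.47% of all genes) or Lpcat3 replicate 3 (5.98%). It was 2 without control replicate 3 (5.49%) or Lpcat3 replicate 4 (6.83%), and 4 without control replicate 4 (14.5%). It was 6 without control replicate 1 (5.98%) and 7 without Lpcat3 replicate 1 (10.7%). Within the libraries coded 1290 and 1317 the median was -0.09 with 11 of 13 lower, and within those coded 1344 and 1345 it was -0.14 with 13 of 13 lower. In 1290 alone, Lpcat3 replicate 1 was below control replicate 2 for every folding gene, but above control replicate 1 for every one except Canx. In 1345 alone the Lpcat3 library was below the control for every folding gene except Manf.

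**Figure D3:**
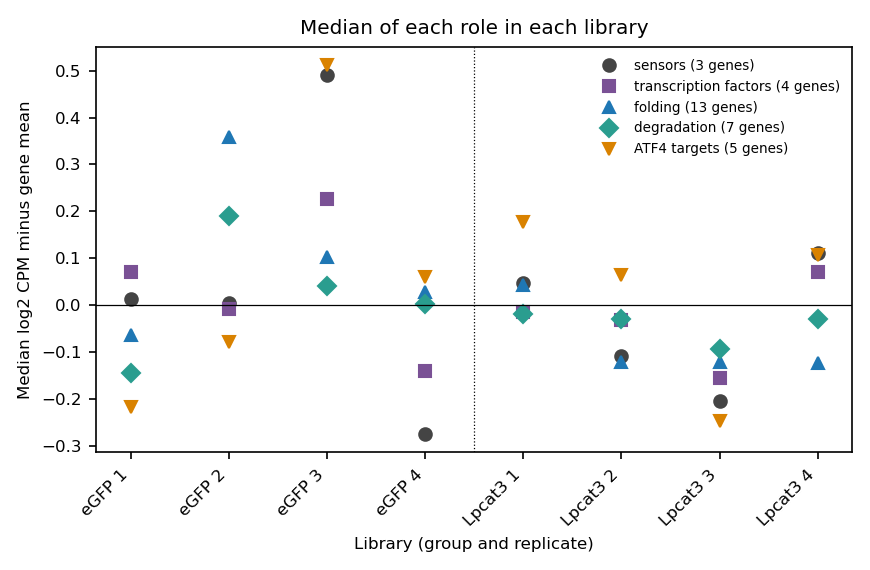
Median over the genes of each role of log2 CPM minus the gene's mean over all 8 libraries (vertical axis), for each library. Folding genes are highest in control replicate 2 (0.36) and near -0.12 in Lpcat3 replicates 2, 3 and 4, while sensors and ATF4 targets are highest in control replicate 3 (0.49 and 0.51).

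Of the degradation genes, several of which are targets of the same arms, 5 of 7 had a log2 fold change below 0 and the median was -0.04. Their difference from the folding genes was not tested. Herpud1, an ERAD scaffold whose window has both an ERSE-II and an ATF4-type site, was at 169, 209.9, 156 and 211 CPM in the controls and at 204, 235, 252 and 186 CPM with Lpcat3. The groups overlapped, and the mean was higher with Lpcat3 (log2 fold change 0.23, SE 0.13; edgeR adjusted p = 0.631). It differed by 0.21 and 0.07 within the 2 code divisions. Edem1, which takes misfolded glycoproteins out of the folding cycle, averaged 254 ± 33.3 CPM with Lpcat3 and 249.6 ± 36.3 CPM in the controls (0.03, SE 0.13; -0.09 with library totals). Both genes had their highest level in Lpcat3 replicate 3 and their lowest in control replicate 3, the reverse of Eif2ak3 and Trib3. Sel1l and Syvn1, adaptor and ubiquitin ligase of the same ERAD complex, had log2 fold changes of -0.04 (SE 0.10) and -0.12 (SE 0.12). Derl1, a channel component, had -0.01 (SE 0.06), the smallest standard error of the 32. Dnajb9, a BiP co-chaperone and XBP1 target that restrains IRE1, averaged 62.2 ± 9.41 against 63.9 ± 11.2 CPM (-0.04, SE 0.14). Derl3 was low, at 2.87, 9.27, 3.79 and 3.26 CPM in the controls and 3.18, 4.59, 2.64 and 2.63 CPM with Lpcat3. Its difference (-0.56, SE 0.39; adjusted p = 0.671) came down to -0.02 without control replicate 2. The median of the 7 genes was 0.01 within codes 1290 and 1317 and -0.04 within 1344 and 1345.

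Targets of ATF4 lay on both sides of 0, and their standard errors ran from 0.13 (Sesn2) to 0.89 (Asns). Asns, asparagine synthetase, was at 0.747, 0.694, 2.04 and 0.248 CPM in the controls and at 0.559, 4.37, 0.0959 and 3.14 CPM with Lpcat3, which is from 2 to 99 counts per library. Lpcat3 replicates 2 and 4 were above all controls and Lpcat3 replicate 3 below all of them, so the log2 fold change of 1.12 had an SE of 0.89 (edgeR adjusted p = 0.698), and it was -0.79 within codes 1290 and 1317 and 2.05 within 1344 and 1345. Trib3, a pseudokinase induced by ATF4 and CHOP, was at 5.62, 5.64, 10.8 and 6.90 CPM in the controls and at 6.97, 4.46, 2.64 and 7.96 CPM with Lpcat3. As with Atf3 and Eif2ak3, control replicate 3 was highest and Lpcat3 replicate 3 lowest (-0.39, SE 0.34; adjusted p = 0.726). Chac1, which degrades glutathione, averaged 3.54 ± 0.405 against 3.24 ± 1.23 CPM (0.12, SE 0.26). Ppp1r15a, the GADD34 subunit that returns eIF2 to its active form, averaged 6.65 ± 0.256 against 6.41 ± 1.66 CPM (0.05, SE 0.17; -0.08 with library totals). Sesn2, a regulator of the growth kinase mTORC1, averaged 6.38 ± 0.920 against 6.69 ± 0.573 CPM (-0.07, SE 0.13).

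**Figure D4:**
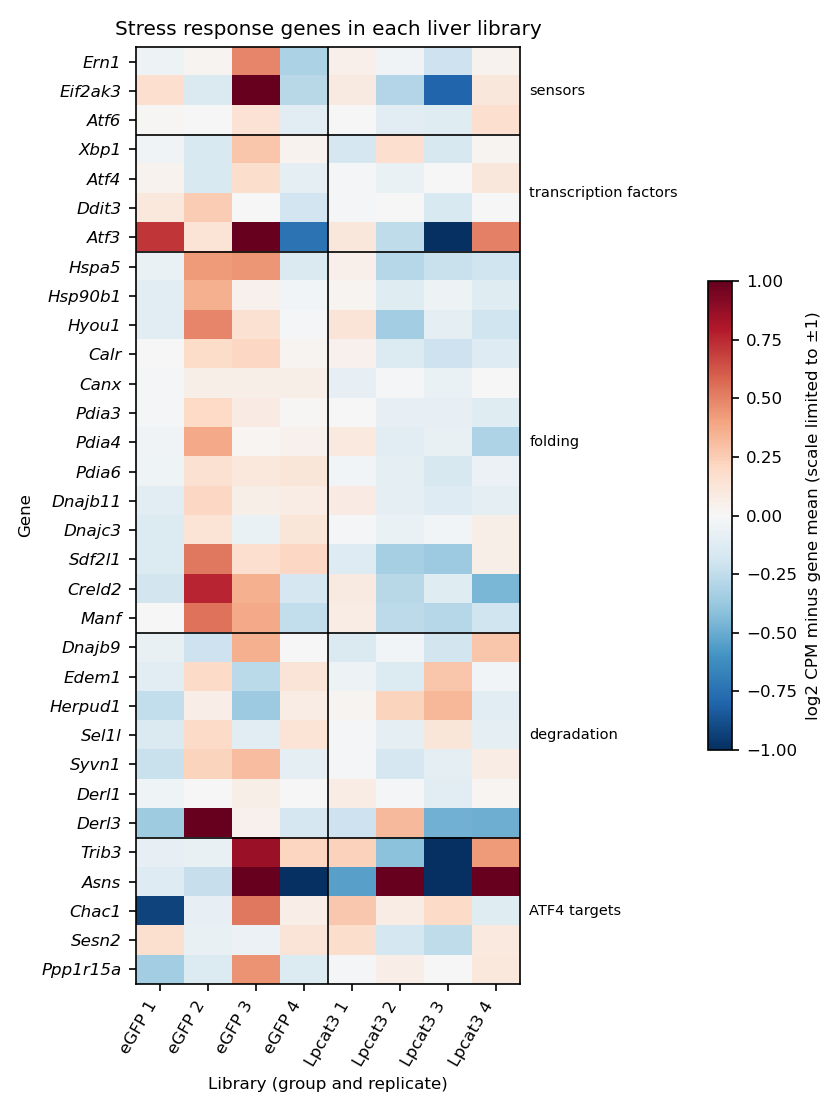
Heat map of log2 CPM minus each gene's mean over the 8 libraries (colour, limited to ±1), with genes in rows by role and libraries in columns. Red in control replicate 2 covers most folding genes and Derl3, red in control replicate 3 covers Ern1, Eif2ak3, Atf3, Trib3 and Asns, and Lpcat3 replicate 3 is blue for Eif2ak3, Atf3, Trib3 and Asns.

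The members thus varied along 2 library patterns that did not coincide. Of the 32, 13 had their highest level in control replicate 2, of which 10 are folding genes, and 12 in control replicate 3, among them 2 sensors, 3 transcription factors and 3 ATF4 targets. Lpcat3 replicate 3 was the lowest library for 12 members. Sensors had a median of 0.00 in control replicate 2 and 0.49 in control replicate 3, on the scale of log2 CPM minus the gene mean, while folding genes had 0.36 and 0.10. The sensor and transcription factor medians also changed sign between the code divisions, at -0.11 and -0.16 within 1290 and 1317 and 0.09 and 0.12 within 1344 and 1345.

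Cell type markers differed between the same libraries. Macrophage markers had negative log2 fold changes for 13 of 15 genes, with summed levels of 419 to 615 CPM in the controls and 323 to 433 CPM with Lpcat3. Markers of plasma and B cells, which express folding genes and Derl3 strongly, were negative for 9 of 10 tested genes, at 18.9 to 35.5 CPM in the controls and 14.5 to 25.5 CPM with Lpcat3. Their defining gene Mzb1 had at most 3 counts in any library and 0 in replicate 1 of each group, and Jchain was at 0.384 to 1.26 CPM. The plasma and B cell sum in control replicate 2 was 18.9 CPM, the lowest of the controls, with Jchain at 0.613 CPM. Ighm (2113 counts over the 8 libraries) and Igkc (711) were the largest rows of this list, and Tnfrsf17 had 1 count. Endothelial markers were negative for 10 of 10, with sums of 739 to 837 CPM in the controls and 632 to 789 CPM with Lpcat3. T and NK cell markers were negative for 7 of 9 (median -0.71; 5.31 to 13.4 CPM and 5.53 to 7.19 CPM). Cholangiocyte markers were positive for 6 of 7 (median 0.38; 55.5 to 105 CPM and 57.3 to 146 CPM). Hepatocyte markers were positive for 10 of 10, at 43473 to 74710 CPM and 56749 to 88884 CPM. Neutrophil markers, negative for 4 of 4, were highest in control replicate 3, at 21.5 CPM against 5.27 to 11.4 CPM elsewhere. Stellate cell and fibroblast markers were negative for 8 of 12, and their sum was lowest in Lpcat3 replicate 3, at 549 CPM against 732 to 899 CPM elsewhere, with Col1a1 there at 13.1 CPM. At an unadjusted edgeR p under 0.05 (8.48% of all genes), 6 macrophage, 3 endothelial and 2 T and NK cell markers were lower. So was 1 each of the plasma and B cell, neutrophil and stellate lists, while 2 cholangiocyte markers and 1 hepatocyte marker were higher. Groups did not overlap for 1 endothelial and 1 T and NK cell marker (4.16% of all genes). The part of these cells in the differences of the stress genes was not tested, and in whole liver fewer cells of a type and less RNA per cell cannot be told apart.

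Other genes of these pathways were read from lists chosen, like the members, with earlier results of these data known. Across the 13 lists 0 passed in edgeR, nor did any pass in DESeq2. Further ATF4 targets were lower with Lpcat3 for 16 of 24 (median log2 fold change -0.22). They include the 2 with the smallest p in opposite directions: Gdf15, a stress hormone, at 5.37 ± 2.79 against 11.8 ± 2.51 CPM, and Cebpb, a partner of ATF4, at 63.6 ± 9.21 against 48.6 ± 3.29 CPM (edgeR adjusted p = 0.564 for both). Aminoacyl-tRNA synthetases, also ATF4 targets, were lower for 10 of 12 (-0.12), with Tars at 63.9 ± 8.73 against 77.4 ± 11.5 CPM and, on the other side, Aars at 126 ± 4.92 against 113 ± 1.89 CPM (adjusted p = 0.591 and 0.572). Genes of death under ER stress were lower for 9 of 11 (-0.31), among them Bbc3, a killer protein of the BCL2 family, at 3.45 ± 0.375 against 4.77 ± 0.619 CPM, and Bcl2l1, a survival protein of that family, at 29.4 ± 1.34 against 38.5 ± 9.33 CPM (adjusted p = 0.564 and 0.569). For Gdf15, Bbc3, Bcl2l1, Cebpb and Aars the groups did not overlap, but these genes were named for the smallest p of their lists. Over the whole lists the groups did not overlap for 1 lower and 1 higher of 24 further ATF4 targets. The same held for 1 of 12 synthetases and 3 of 11 death genes, against 4.16% of all genes. Of the 13 lists, those of further ATF4 targets, synthetases and death genes had the lowest medians.

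The lists of ER machinery lay near the median gene. Genes of translocation and glycosylation were lower for 19 of 31 (median -0.01; Spcs1 0.14, SE 0.07, and Ostc -0.20, SE 0.10), vesicle coat genes for 8 of 16 (-0.00; Sec23a 0.12, SE 0.08, and Sec24b -0.13, SE 0.10), further oxidoreductases and lectin cycle genes for 10 of 23 (0.03; Pdia5 0.32, SE 0.17, and Txndc11 0.19, SE 0.12) and further ERAD genes for 11 of 27 (0.02; Rnf5 0.15, SE 0.09). The IRE1 pathway list was lower for 4 of 8 (-0.03; Ptpn1 -0.20, SE 0.11, and Rtcb, the ligase of Xbp1 splicing, 0.09, SE 0.06), and ER-phagy genes for 1 of 7 (0.06; Atl2 0.24, SE 0.13, and Calcoco1 0.14, SE 0.10). Kinases of eIF2 and its exchange factor were lower for 6 of 15 (0.03). In that list the exchange factor subunit Eif2b1 was at 15.0, 14.9, 15.6 and 15.6 CPM with Lpcat3 and at 12.8, 13.0, 12.6 and 13.8 CPM in the controls, without overlap (log2 fold change 0.23, SE 0.07; edgeR adjusted p = 0.564), and Eif2b4 had 0.25 (SE 0.10). Genes of ATF6 processing and the CREB3 family were lower for 5 of 12 (0.02), with the hepatocyte factor Creb3l3 at 0.19 (SE 0.08) and Creb3l2 at -0.34 (SE 0.18). Outside the ER, cytosolic heat shock genes were lower for 9 of 19 (0.04; Dnaja1 0.22, SE 0.08, and Cryab 0.40, SE 0.17), and mitochondrial chaperones and proteases for 1 of 13 (0.09; Afg3l2 0.16, SE 0.06, and Clpp 0.19, SE 0.09). Besides Eif2b1, the groups did not overlap for Afg3l2 and for 1 gene each of the further ERAD and ATF6 processing lists. All were higher with Lpcat3, where 4.16% of all genes did not overlap (1.93% higher). Eif2b1 and Afg3l2 were named for a small p in their lists.

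The ERSE also picks out genes without reference to their known roles. Of 37 genes with an ERSE in the window, 23 were tested, and this list was drawn up after the values of the members were seen. Of the 23, 21 had a log2 fold change below 0, or 91.3% against 51.5% of all genes, and the median was -0.17 against -0.01. No gene of the list passed in edgeR (0 of 23, against 0.00573% of all genes; adjusted p from 0.579), nor in DESeq2 or limma-voom (0 of 23 each), and 3 of 23 had an unadjusted p under 0.05, where 8.48% of all genes did (5.18% lower). These 3 were lower and were members (Hspa5, Calr and Pdia6). The 9 members in it were all below 0, with a median of -0.17, while 13 of the 19 members whose window had no ERSE were below 0, with a median of -0.07. This contrast does not separate the element from the role, since 7 of the 9 are folding genes. Folding genes with a window but no ERSE were also below 0: Sdf2l1 (-0.39), Pdia4 (-0.20), Pdia3 (-0.14) and Dnajb11 (-0.12). The part of the element was not tested. The 14 genes that are not members had 12 below 0 and a median of -0.16. These counts moved with the libraries used. Without the libraries numbered 3 in both groups, 7 of the 14 were below 0 (median -0.01). With the code numbers in the model, where only 1290 and 1345 inform the group difference, 6 of 14 were (median 0.04). The 9 members had 9 and 8 below 0 in the same fits (medians -0.15 and -0.11). Without control replicate 2 the order was the other way, with a median of -0.07 for the members (8 of 9 below 0) and -0.14 for the other genes (11 of 14). Among them are Ero1b, the oxidase that recharges disulfide isomerases, at 73.4 ± 5.88 against 78.3 ± 11.8 CPM (-0.09, SE 0.11), and Alg12, a glycosylation enzyme whose window shares its ERSE with Creld2 (-0.00, SE 0.12). Xlr3a, Xlr3b and Xlr3c are near-identical copies with the same ERSE letters and are uncertain as separate values, and Hnrnpa3 and Gm39859 share a site. Pan2 (0.11, SE 0.06) and Acacb (0.05, SE 0.21) were above 0, and for Pan2 the groups did not overlap (4.16% of all genes). For the other motifs the share of tested genes below 0 was 66.7% of 9 (ERSE-II), 52.7% of 110 (TGATGCAA), 49.0% of 98 (TGATGNAAT) and 42.7% of 396 (TGACGTCA), and 62 of 124 genes with TGACGTGG were below 0. Without control replicate 3 the ERSE median was -0.09 with 19 of 23 below 0, without control replicate 2 it was -0.11 with 19, and with the code numbers in the model it was -0.08 with 14.

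**Figure D5:**
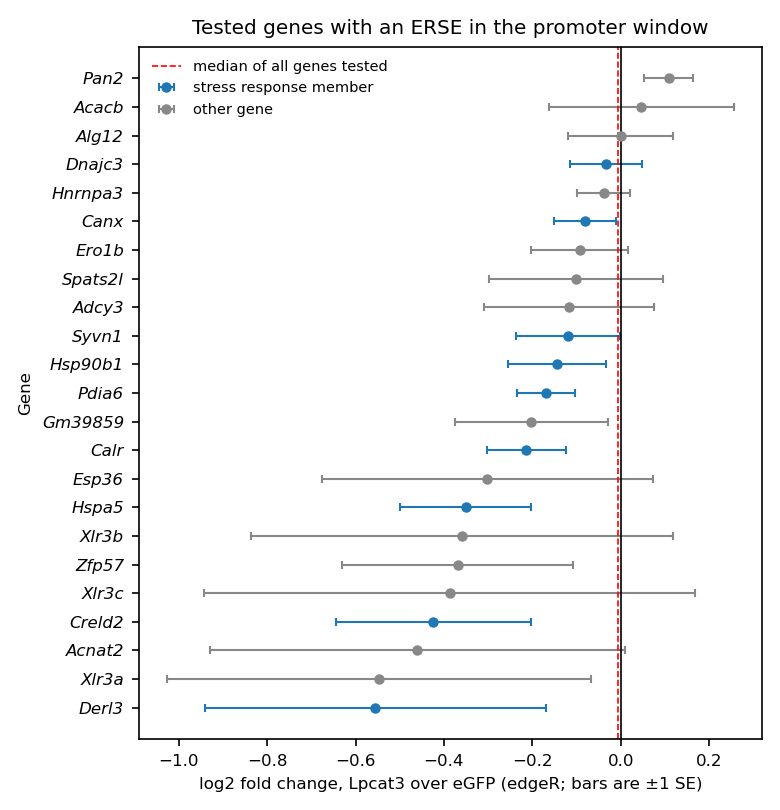
Log2 fold change (Lpcat3 over eGFP, horizontal axis) with bars of ±1 SE from edgeR for the 23 tested genes with an ERSE in the promoter window, stress response members in blue and other genes in grey, and the median of all genes as a dashed line at -0.01. Only Pan2 and Acacb lie right of 0, and Alg12 lies at it.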

How the data were processed

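RNA of 8 livers was sequenced for 101 cycles from 1 end. The authors deposited raw counts per NCBI gene number, per the values in the table. The submitters' processing notes name bcl2fastq 2.20, DESeq2 and build GRCm39; the sources used here give no aligner, counter or strand setting. Of the 32 members, 9 share exon bases with another GENCODE gene model (31 members had 1 matching model), so their counts could include its reads. Symbols came from RefSeq (GRCm38.p6), matching 39397 of 40838 rows with 99.5% of counts; promoter coordinates are in that build, not the authors'.

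Genes were filtered with filterByExpr (minimum count 10), scaled by TMM and tested with edgeR 4.0.16 (R 4.3.3; robust quasi-likelihood fit, group as the only term, two-sided, Benjamini-Hochberg over 17438 genes, called at 0.05). SE is the log2 fold change over the root of F. Log2 CPM used a prior count of 2. DESeq2 1.42.0 and limma-voom 3.58.1 were alternatives, with other scalings, filters, left-out libraries, the replicate number and code numbers. The steps were tested on simulated data. Members, lists and tests were chosen with earlier results of these data known. All members are named; of each other list, the 2 genes with the smallest p, of which 1 is not reported here. Exon lengths are unions of GENCODE exons.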

Additional observations from a re-analysis of the deposited data

Results flagged for a closer look

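Among 4 values, a library was set apart where its gap to the nearest other value exceeded Dixon's critical share of the range for 4 values, which chance gives in about 5% of groups. Of 144 groups examined, 7 met this. Derl3 was at 9.27 CPM in control replicate 2, against 2.87 to 3.79 CPM in the other controls. Canx was at 509 CPM in control replicate 1, against 536 to 538 CPM, and Ddit3 at 5.08 CPM in Lpcat3 replicate 3, against 5.59 to 5.65 CPM. Outside the members, Bcl2l1 was at 52.4 CPM in control replicate 3 (others 32.9 to 35.3), Calcoco1 at 40.0 CPM in control replicate 4 (the lowest at 30.5), Rnf5 at 48.4 CPM in Lpcat3 replicate 3 (38.2 to 39.7), and Xlr3a at 6.93 CPM in Lpcat3 replicate 1 (the lowest at 2.90).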

How the results depend on the processing

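No member was called in any setting (0 of 32), including DESeq2, limma-voom and every left-out library. In the fit with each code number, only the libraries of 1290 and 1345 inform the group difference. Over all genes 1 was called higher and 0 lower; this became 3 higher with library totals, 2 without robust estimation, 27 higher and 21 lower with DESeq2, 0 without a filter, without both libraries numbered 3, with the code division (1290 and 1317 against 1344 and 1345) or with each code number, and 0 to 7 when 1 library was left out. The member median was -0.11 (-0.23 with library totals, -0.061 without both libraries numbered 3, -0.044 with each code number; -0.16 to -0.08 with 1 library left out), that of folding genes -0.20 (-0.32 with library totals, -0.13 with the code division, -0.11 with each code number; -0.27 to -0.13 with 1 left out), and that of the ERSE genes -0.17 (-0.29 with library totals, -0.068 without both libraries numbered 3, -0.21 to -0.09 with 1 left out). Folding genes at an unadjusted p under 0.05 numbered 10 with library totals (9.94% of all genes), and 0 with the code division (4.05%), with each code number (2.99%) and without both libraries numbered 3 (5.19%). The fold of Lpcat3 CPM, 2.37, ran from 2.15 to 2.56. Without control replicate 3 the exact permutation p was 0.0571, with every Lpcat3 library still above every remaining control. Fewer than 70 relabellings are possible with a library left out, so p then moves in coarser steps. Its edgeR log2 fold change passed with library totals (1.12), in DESeq2 (1.25) and without Lpcat3 replicate 1 (1.36). Its permutation test takes no code term, so that alternative was not run.

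Single genes changed sign as follows, and the cause was not tested. With library totals Atf4 was at -0.11, Edem1 at -0.092, Ppp1r15a at -0.078 and Rtcb at -0.033. In limma-voom Xbp1 was at 0.016, Dnajb9 at 0.064, Edem1 at -0.041 and Derl1 at 0.0091. Without both libraries numbered 3 Ern1 was at 0.12, Eif2ak3 at 0.053, Atf6 at 0.056, Xbp1 at 0.067, Atf3 at 0.0022, Dnajb9 at 0.14, Edem1 at -0.15, Derl1 at 0.040 and Trib3 at 0.10. With the code division Ern1 was at 0.059, Atf6 at 0.023, Ddit3 at 4.6e-05, Edem1 at -0.044 and Derl1 at 0.015. With each code number Ern1 was at 0.18, Eif2ak3 at 0.21, Atf6 at 0.12, Atf3 at 0.33, Dnajb9 at 0.12, Edem1 at -0.13, Herpud1 at -0.015, Syvn1 at 0.050, Derl1 at 0.062, Trib3 at 0.26, Sesn2 at 0.062, Calcoco1 at -0.0050, Pdia5 at -0.034 and Sec24b at 0.030. With 1 library left out the ranges that cross 0 were Edem1 -0.069 to 0.10, Chac1 -0.083 to 0.36, Ppp1r15a -0.044 to 0.25, Atf4 -0.030 to 0.079, Dnajc3 -0.080 to 0.0087, Sel1l -0.092 to 0.020, Ern1 -0.21 to 0.068, Atf6 -0.089 to 0.020, Xbp1 -0.14 to 0.023, Dnajb9 -0.15 to 0.084 and Derl1 -0.040 to 0.022, and 21 of 32 members kept their sign.

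The labels do not say whether replicate numbers pair the samples. Same-numbered libraries had correlations of 0.285, -0.0689, -0.400 and -0.124 in their deviations from the group means. Only Lpcat3 replicate 1 was closest to the control of its own number. Such correlations cannot show whether samples were paired by design. With the replicate block 0 genes were called over all genes and 0 members, and the folding median was -0.20. At an unadjusted p under 0.05 there were 0 folding genes in place of 4, where 6.78% of all genes met that rule in place of 8.48%.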
